A study of Mus musculus with 12 samples.

Results

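The genes of the synaptic vesicle fusion machinery were 67 of the 23282 gene rows counted in mouse brain. They were chosen by symbol alone, as every row named Syt, Sytl, Stx, Stxbp, Vamp, Cplx, Snap or Syn followed by a number, together with Sv2a, Sv2b and Sv2c. The rule took 17 synaptotagmins (Syt), 5 synaptotagmin-like genes (Sytl), 15 syntaxins (Stx), 8 syntaxin-binding genes (Stxbp), 7 vesicle-associated membrane proteins (Vamp), 4 complexins (Cplx), 5 Snap genes, 3 synapsins (Syn) and 3 Sv2 genes. The name rule also brought in Snap91, which encodes a clathrin coat protein, and Stxbp3-ps, a processed pseudogene of Stxbp3 counted on a row of its own. Of the 67, Syt8 and Vamp7 had no count in any library, and Cplx4, Stx11, Stx19, Syt15, Sytl3 and Sytl4 had at most 9 counts in a library and were not tested. In HD mice 58 were tested, and 59 over all libraries, where Sytl1 also passed the filter on low counts.

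A synaptic vesicle fuses when the vesicle protein Vamp2 winds together with Stx1a and Snap25 of the plasma membrane, a bundle called the SNARE complex. Complexins clamp and prime the assembled bundle, and synaptotagmins such as Syt1 sense the calcium that triggers release. Synapsins tether the reserve of vesicles, Sv2 proteins are vesicle membrane glycoproteins that bind synaptotagmin, and most other syntaxins and Vamp genes serve fusion at the Golgi apparatus, endosomes or lysosomes in every cell.

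RNAseq was performed on striatum and cortex of R6/2 mice (HD mice), which carry the start of the human HTT gene with a long CAG repeat under the human HTT promoter beside their own Htt genes, and of wild-type (WT) mice. HD mice were sampled after symptom onset, at 13 weeks, and before it, at 8 weeks, with 2 libraries for each region and age. WT mice were sampled at the same ages, with 1 library for each region and age, so that no spread between WT mice of 1 age was measured. The labels do not say whether a library is 1 mouse or a pool, or whether striatum and cortex of 1 number share a mouse, and p-values therefore measure the spread between these libraries. The libraries were made with a 3′ tag kit, in which a transcript gives a tag whatever its length, and values are CPM, counts scaled to a common library size by TMM over the 12 libraries.

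The total count was between 8814386 and 12091201 per library, and members took from 0.81% to 1.57% of it. The ribosomal RNA precursor Rn45s took 10.5% to 15.2% of the counts in HD libraries and 4.32% to 5.62% in WT libraries. By Xist and Y-linked counts, replicate 1 of each HD group was male and replicate 2 female, the WT libraries were female at 13 weeks and male at 8 weeks, and sex was not a term of the main test. The pre-symptomatic HD striatum library of replicate 2 stood apart. In it the markers of striatal projection neurons, 10 genes summed, were at 2309 CPM against 7335 in replicate 1, markers of thalamus (4 genes) at 1024 CPM against 31.6 to 92.9 in the other 11 libraries, and markers of oligodendrocytes (10 genes) at 21401 CPM against 2415 to 7523. For some results that rest on this library a value without it is given as well.

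Promoters are shown for the members that differed between the stages of HD mice and have an entry in RefSeq, so that they can be set beside the values that follow. Each runs from 250 bases before to 50 bases after an annotated start in GRCm38.p6 (the same coordinates as mm10), 5′ to 3′ on the strand of the gene. Syt1 is at chr10:109010926-109011225 (minus strand), Sv2b at chr7:75309213-75309512 (minus), Cplx3 at chr9:57606232-57606531 (minus) and Stx12 at chr4:132884409-132884708 (minus). Capitals mark a GC box (GGGCGG, either strand) or a TATA box (TATAAA, either strand), which do not overlap here.
Syt1: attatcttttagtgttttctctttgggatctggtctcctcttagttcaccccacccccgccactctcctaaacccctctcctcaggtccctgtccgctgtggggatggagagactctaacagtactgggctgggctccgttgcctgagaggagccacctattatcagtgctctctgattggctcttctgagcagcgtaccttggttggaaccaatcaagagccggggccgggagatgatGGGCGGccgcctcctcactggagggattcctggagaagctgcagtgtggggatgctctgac
Sv2b: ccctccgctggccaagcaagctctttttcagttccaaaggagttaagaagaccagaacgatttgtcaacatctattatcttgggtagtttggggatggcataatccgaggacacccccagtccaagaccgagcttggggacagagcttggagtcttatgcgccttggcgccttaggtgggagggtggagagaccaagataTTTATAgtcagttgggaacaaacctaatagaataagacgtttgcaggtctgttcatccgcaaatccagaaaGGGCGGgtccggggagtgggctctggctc
Cplx3: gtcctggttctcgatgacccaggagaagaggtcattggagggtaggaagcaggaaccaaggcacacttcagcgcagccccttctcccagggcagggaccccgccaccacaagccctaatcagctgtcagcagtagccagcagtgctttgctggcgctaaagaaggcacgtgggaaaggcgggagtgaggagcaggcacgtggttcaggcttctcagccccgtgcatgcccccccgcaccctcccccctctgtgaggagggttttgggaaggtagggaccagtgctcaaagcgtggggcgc
Stx12: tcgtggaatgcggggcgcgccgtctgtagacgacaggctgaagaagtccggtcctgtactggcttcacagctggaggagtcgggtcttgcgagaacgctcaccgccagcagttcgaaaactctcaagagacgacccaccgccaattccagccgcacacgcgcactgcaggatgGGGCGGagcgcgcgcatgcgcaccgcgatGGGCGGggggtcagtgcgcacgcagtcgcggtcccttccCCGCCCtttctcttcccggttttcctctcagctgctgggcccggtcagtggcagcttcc

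The GC box was present in the promoters of Syt1 and Sv2b, which fell after symptom onset, and in that of Stx12, which rose, and was absent from that of Cplx3, which fell. It occurred in 35.7% of all 32851 RefSeq promoters of this length. The TATA box, present in 13.6% of all promoters, was found in Sv2b alone among these 4. Of the 17 members of the neuronal fusion core described below, 12 had a promoter entry and 9 of these held a GC box. Syn1 alone among the 12 held a cyclic AMP response element (TGACGTCA, both strands, 1.79% of all promoters) and the letters TTCAGCACC of the RE1 silencer (either strand, 0.371%). Snap25, Vamp2, Syn3 and Syt7 had no entry. The tags come from the 3′ end of a transcript and do not show which start was used.

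In WT mice the members spanned a wide range of levels. Averaged over both ages, 17 members were at 100 CPM or more in striatum and 22 in cortex, and 21 and 23 were under 10 CPM. The highest in WT cortex were Syt1 at a mean of 2650.1 CPM, Syt11 at 1748, Snap25 at 1378 and Vamp2 at 1165. In WT striatum Syt11, at 1462 CPM, lay above Syt1, at 1289, and Cplx2, at 1239, was the next. Syt11 is a synaptotagmin that does not bind calcium. The 5 members with the most counts held between 45.1% and 53.8% of all member counts in each library.

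Summed over the 67 members, the level was lower in HD mice after symptom onset than before it in both regions. In striatum the sum was 7302 and 8728 CPM in the post-symptomatic HD libraries (replicates 1 and 2), 9895 and 11235 in the pre-symptomatic ones, 9858 in WT at 13 weeks and 10146 in WT at 8 weeks. In cortex it was 11449 and 11337 CPM after onset, 15812 and 15182 before it, and 15833 and 15768 in WT at 13 and 8 weeks. Both post-symptomatic HD libraries were the lowest of their region, and in cortex the pre-symptomatic HD libraries lay close to the WT libraries. The mean after onset was 75.9% of that before it in striatum and 73.5% in cortex. By library totals, without TMM scaling, these shares were 86.2% and 87.0%, since TMM sets the median gene near no change whereas library totals set it 0.21 higher on the log2 scale after onset. Without the pre-symptomatic striatum library that stood apart, the log2 ratio of the striatal sum was −0.30 in place of −0.40.

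The complexins had the lowest sums after onset relative to those before it. Their sum was 675 and 1105 CPM in post-symptomatic HD striatum against 1597 and 1419 before onset, and 793 and 858 CPM in post-symptomatic HD cortex against 1701 and 1628. All 4 post-symptomatic libraries lay under the pre-symptomatic and WT libraries of their region. The complexin sum after onset was 59.0% of that before it in striatum and 49.6% in cortex, and 67.0% and 58.7% by library totals.

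The other families differed less. The synaptotagmin sum after onset was 69.3% of that before it in striatum and 74.0% in cortex, the Snap sum 78.9% and 70.9%, and the synapsin sum 83.0% and 73.3%. The syntaxin sum was at 85.3% and 80.9%, and the Vamp sum at 86.1% and 81.8%. The Stxbp sum was at 102% in striatum and 81.4% in cortex, and the Sv2 sum at 94.2% and 88.4%, and by library totals the Sv2 sum was at 107% and 105%. The Sytl sum, under 30 CPM in every library, was at 97.9% and 73.7%. No test was made of a sum, and in striatum the libraries of the stages overlapped for the Snap, Vamp, Stxbp, Sv2 and Sytl sums.

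**Figure D1:**
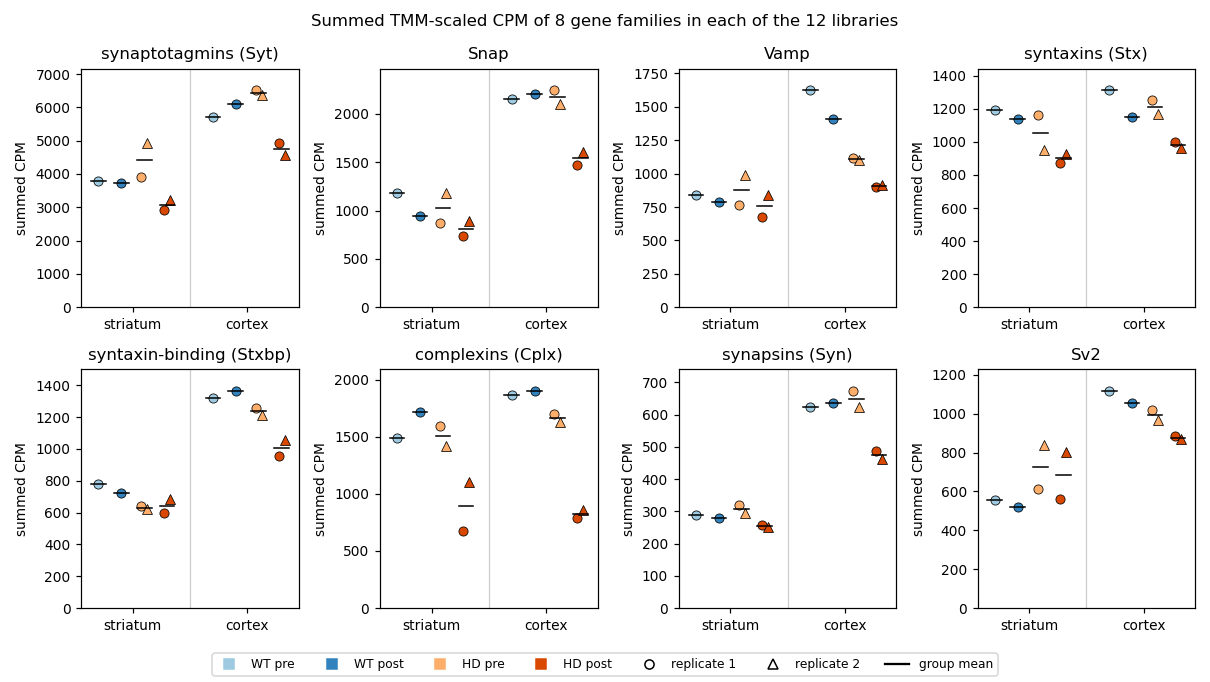
Summed TMM-scaled CPM (vertical axes, from 0) of 8 gene families in striatum and cortex, with a point for each of the 12 libraries (circle, replicate 1, triangle, replicate 2) and a bar at the group mean. The complexins show the widest gap between HD libraries before and after symptom onset, at 49.6% of the earlier mean in cortex, whereas the Stxbp and Sv2 sums in striatum overlap.

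The first question was which members differed in HD mice between the ages before and after symptom onset, over both regions with region as a term. By the edgeR quasi-likelihood test, adjusted after Benjamini and Hochberg over 13944 genes, 5 of 58 members fell and 1 rose. Over all genes 4.53% fell and 1.93% rose, so 8.62% of the members fell beside 4.53%, and 1.72% rose beside 1.93%. The members that fell were Syt1, Syt7, Snap25, Cplx3 and Sv2b, and the member that rose was Stx12. The median log2 fold change was −0.11 over the 58 members and 0.00 over all genes. With library totals in place of TMM, 3 members fell (Syt1, Sv2b, Cplx3) and 3 rose (Stx12, Stx7, Snap29), with a median of 0.21 over all genes. That was 10.3% of the members beside 11.7% of all genes, so the members were not called more often than other genes in that fit. Leaving out 1 HD library left 1 in its group. Without the pre-symptomatic striatum library that stood apart, or without its replicate, more members and more of all genes were called. Without any other HD library fewer of both were called.

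The neuronal core, 17 members with a known place in fusion at nerve terminals (among them Syt1, Syt2, Stx1a, Vamp1, Vamp2, Snap25, Cplx1, Cplx2, Cplx3, the synapsins and the Sv2 genes), held 4 of the 5 that fell. Of the 17, 16 had a negative log2 fold change between the stages (median −0.71), where 49.7% of all genes tested were negative. Of the other 41 members tested, 19 had a negative value, with a median of 0.01, and 1 fell (Syt7) and 1 rose (Stx12). The core was listed with earlier results of these data known. Its contrast with the other members is thus a description and was not tested. Both post-symptomatic libraries lay under both pre-symptomatic libraries in each region for 9 of 58 members, where 11.3% of all genes tested did, and above them for 2 (Stx7 and Stx12), where 9.35% of all genes did. In whole tissue, fewer nerve cells and less RNA per nerve cell cannot be told apart. General neuronal markers (8 genes summed) were at 3474 to 4137 CPM in the HD libraries after onset and at 4620.5 to 5806 before it. Of those 8 markers 3 fell (Rbfox3, Tubb3 and Eno2), with a median log2 fold change of −0.62, and WT libraries were at 3297 to 5490 CPM. Markers of striatal projection neurons were at 1386 and 1411 CPM in HD striatum after onset and at 7737 and 7114 CPM in WT striatum, and 3 of the 8 tested fell between the stages. Markers of cortical excitatory neurons (9 genes summed) were at 1286 and 1263 CPM in HD cortex after onset, 1775 and 1739 before it, and 1997 and 1884 in WT cortex, and 0 of the 9 passed between the stages by edgeR. Of 8 astrocyte markers 2 also fell. The part of these markers in the members' change was not tested.

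Taken region by region, no member passed the threshold. In striatum 0 of 58 members passed where 0.16% of all 14392 genes did, and 10 members (17.2%) had an unadjusted p under 0.05 beside 13.0% of all genes. The smallest p-values were those of Sv2b, at −1.01 ± 0.17 (log2 fold change ± SE, adjusted p = 0.0641), Cplx3 and Syt1. In cortex 0 of 58 passed where 0.591% of all genes did, and 15 (25.9%) had an unadjusted p under 0.05 beside 14.3% of all genes, the smallest for Syt1, at −0.69 ± 0.16 (adjusted p = 0.0998), Stx1a and Syn1. Stx1a in cortex was 139 and 190.2 CPM after onset and 365 and 384 before it. Its log2 fold change was −1.20 ± 0.28 with an adjusted p of 0.105. Without replicate 1 or replicate 2 of pre-symptomatic striatum, more members and more of all genes were called in both regions. Such a fit assumes the remaining library to vary as the other groups do. The striatal values then depended on the library left out. Syt5 was at 1.32 without replicate 1 and −0.91 without replicate 2, and Syt16 at 1.15 and −0.89. Syt1 (−0.90 and −0.71), Syt7 (−2.05 and −0.79), Sv2b (−0.84 and −1.21) and Cplx3 (−4.47 and −3.08) kept their sign. With DESeq2 the counts were 5 in striatum and 4 in cortex, or 8.62% and 6.90% of the members beside 3.11% and 3.88% of all genes. The test of the difference between the regional changes called 0 members by edgeR or DESeq2, where 0% of all genes passed by edgeR. The smallest unadjusted p there belonged to Stxbp6, Stxbp2 and Cplx3, and 4 members (6.90%) had an unadjusted p under 0.05 beside 3.61% of all genes.

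The second comparison set HD mice against WT mice of the same age. At the post-symptomatic age 4 of 59 members were lower in HD mice (Sv2b, Cplx2, Snap25 and Sytl1) and none was higher by edgeR, where 4.26% of all 14706 genes were lower and 3.10% were higher. Unadjusted, 17 members (28.8%) had a p under 0.05 beside 22.3% of all genes. DESeq2 called 9 (15.3%, beside 12.3% of all genes), of which 2 were higher, Stx12 among them. The WT libraries of this age were female, and with sex as a term 3 members were called (Cplx2, Sv2b and Syn2, the last at −0.61 with an adjusted p of 0.0261), beside 6.68% of all genes, so that Snap25 and Sytl1 were lost. The median log2 fold change was −0.14 over the members and 0.01 over all genes. Both HD libraries lay under the WT library in each region for 17 of 59 members, beside 22.6% of all genes, and above it for 7, beside 21.4%. Without a WT library of this age few calls or none remained, among the members as among all genes. Without either pre-symptomatic HD cortex library, or either post-symptomatic HD library of replicate 1, fewer of both were called. Without the pre-symptomatic HD striatum library that stood apart more of both were called. Over the alternative fits the log2 fold change lay between −1.65 and −1.43 for Cplx2 and between −1.12 and −0.95 for Sv2b. It lay between −0.87 and −0.62 for Snap25 and between −4.65 and 0.05 for Sytl1.

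Before symptom onset 1 of 59 members was higher in HD mice than in WT mice and none was lower by edgeR, where 1.95% of all genes were higher and 0.15% lower. DESeq2 called 4, among them Sytl5 (higher), Vamp2 and Vamp4 (lower), which is 6.78% of the members beside 4.58% of all genes. An unadjusted p under 0.05 was found for 9 (15.3%), beside 13.9% of all genes. Among the members named here, the smallest p-values belonged to Vamp4, at −0.54 ± 0.15 (adjusted p = 0.0912), and Sytl5, at 1.65 ± 0.49 (adjusted p = 0.134). The median log2 fold change over the members was 0.05. The edgeR call was lost without either WT library of this age and without either pre-symptomatic HD cortex library. Fewer of all genes were called in these fits as well.

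The change with age in WT mice was set beside the change with stage in HD mice. The WT libraries were female at 13 weeks and male at 8 weeks, so age and sex cannot be told apart among them. The same limit holds for the HD change less the WT change. With sex as a term 0 members and 0% of all genes were called in either comparison. Between 8 and 13 weeks 0 of 59 members differed in WT mice by edgeR or DESeq2, where 0.0136% of all genes did, and Sv2c, at −2.96 ± 0.80, alone had an unadjusted p under 0.05. The next smallest p-values were those of Stx1a, at −0.48 ± 0.32, and Syt14. Among the 17 core members the median log2 fold change with age was −0.05 in WT mice. The test of the HD change less the WT change called 0 members, where 0.116% of all genes passed, and 7 members (11.9%) had an unadjusted p under 0.05 beside 8.92% of all genes. The smallest p was that of Syt1, whose change was 0.70 ± 0.18 lower on the log2 scale in HD mice (adjusted p = 0.203), then those of Cplx2 (adjusted p = 0.366) and Syt2 (adjusted p = 0.437). DESeq2 called Syt1 here, and edgeR called Cplx2 without the library that stood apart. These comparisons share the HD or WT libraries of an age, so that their values are not independent of each other.

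**Figure D2:**
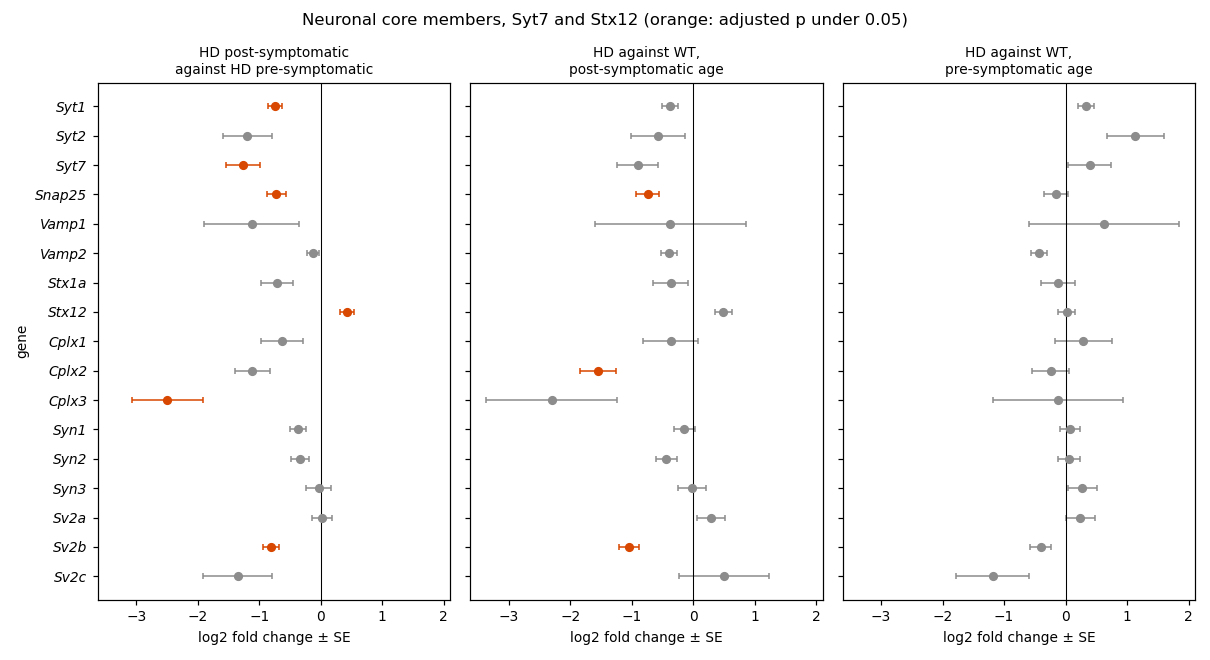
Log2 fold change with its standard error (horizontal axis) for core members, Syt7 and Stx12 in the comparisons of HD stages and of HD with WT mice at each age, with adjusted p under 0.05 in orange. Syt1, Syt7, Snap25, Cplx3 and Sv2b fell and Stx12 rose between the HD stages, Snap25, Cplx2 and Sv2b were lower than in WT mice after onset, and none of those shown passed before it.

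Syt1, the fast calcium sensor of release in most forebrain neurons, had the smallest p of any member between the HD stages. Its striatal level was 904 and 941 CPM in HD mice after onset, 1524 and 1746 before it, 1219 in WT at 13 weeks and 1359 in WT at 8 weeks. The cortical values were 2242 and 2001 after onset, 3472 and 3349 before it, and 2705 and 2595 in WT at 13 and 8 weeks. The HD libraries before onset were above the WT libraries and those after onset below them, in both regions, with no overlap. Between the stages the log2 fold change was −0.74 ± 0.11 (adjusted p = 0.00568), a 1.67-fold decrease, and it passed the threshold in all 14 alternative fits, from −0.78 to −0.54. Against WT mice Syt1 was at −0.38 ± 0.13 after onset (adjusted p = 0.0969) and 0.33 ± 0.13 before it (adjusted p = 0.273). DESeq2 called Syt1 lower than in WT mice after onset (adjusted p = 0.0156). On simulated counts unchanged genes made up more of the DESeq2 calls than the threshold allows. That limits the DESeq2 calls here and below. The gene spans chr10:108497650-109010982 on the minus strand in GENCODE M21.

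Syt7, a slower and more calcium-sensitive member of the family, fell between the HD stages. Striatal Syt7 was at 141 and 209 CPM after onset, 304 and 736 before it, and 273 and 279 in WT at 13 and 8 weeks, the value of 736 being that of the library that stood apart. Cortical Syt7 was at 283 and 289 CPM after onset, 554 and 572 before it, and 618 and 615 in WT. The 4 post-symptomatic libraries were the lowest of their regions. The log2 fold change was −1.26 ± 0.28 (adjusted p = 0.0363), and −0.89 without the library that stood apart. The call was lost in 9 of 14 alternative fits. Against WT mice after onset it was at −0.90 ± 0.33 (adjusted p = 0.133), and at −0.88 without the library that stood apart.

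Syt2, the fast sensor of many inhibitory and hindbrain neurons, was lower in cortex after onset, at 13.9 and 17.6 CPM against 46.9 and 44.5 before it and 25.5 and 24.0 in WT. In striatum its values were 13.1 and 41.9 CPM after onset, 30.7 and 69.8 before it, and 38.5 and 18.9 in WT. The stages overlapped in striatum and did not in cortex, the striatal value of 69.8 being that of the library that stood apart. Over both regions the log2 fold change was −1.19 ± 0.40 (adjusted p = 0.129), which missed the threshold, and DESeq2 called it (adjusted p = 0.0124). Syt11, as abundant as Syt1 in striatum, was at −0.07 ± 0.13 (adjusted p = 0.790). Of the 15 synaptotagmins tested, 12 had a negative log2 fold change between the stages and 2 fell.

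Snap25, the plasma membrane SNARE that gives 2 of the helices of the bundle, fell between the HD stages and was lower than in WT mice after onset. Striatal Snap25 was at 323 and 405 CPM after onset, 453 and 699 before it, 589 in WT at 13 weeks and 781 in WT at 8 weeks. Cortical Snap25 was at 783 and 901 CPM after onset, 1523 and 1400.4 before it, 1448 in WT at 13 weeks and 1308 in WT at 8 weeks. Both libraries after onset were under all others of their region. The log2 fold change was −0.72 ± 0.16 between the stages (adjusted p = 0.0267) and −0.74 ± 0.19 against WT mice after onset (adjusted p = 0.0329). Without the library that stood apart the change between the stages was −0.60. The stage call was lost in 6 of 14 alternative fits and the genotype call in 9 of 19, both among them by library totals. Snap25 spans chr2:136713453-136782428 on the plus strand, with Gm14053 annotated on the opposite strand.

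Vamp2, the vesicle SNARE, did not pass between the stages or against WT mice in the main edgeR fits. Its values in striatum were 534 and 536 CPM in HD mice after onset, 647 and 541 before it, and 655 and 705 in WT at 13 and 8 weeks. Its values in cortex were 762 and 768 CPM after onset, 836 and 830.2 before it, 1066 in WT at 13 weeks and 1263 in WT at 8 weeks. All 8 HD libraries lay under the WT libraries of their region. Between the stages the log2 fold change was −0.12 ± 0.10 (adjusted p = 0.511), and against WT mice −0.39 ± 0.13 after onset (adjusted p = 0.0947) and −0.43 ± 0.13 before it (adjusted p = 0.142). DESeq2 called Vamp2 lower than in WT mice after onset (adjusted p = 0.0341) and before it (adjusted p = 0.0370). With library totals edgeR called it before onset (adjusted p = 0.0392).

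Stx1a, a syntaxin of the nerve cell membrane, was in striatum 34.6 and 19.5 CPM after onset, 37.0 and 26.2 before it, and 28.5 and 43.1 in WT. With the cortical values above, and 263 and 339.8 CPM in WT cortex at 13 and 8 weeks, the stages overlapped in striatum alone. Over both regions it was at −0.71 ± 0.27 (adjusted p = 0.157), and at −0.91 without the library that stood apart. DESeq2 called Stx1a between the stages (−0.72, adjusted p = 0.0456).

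**Figure D3:**
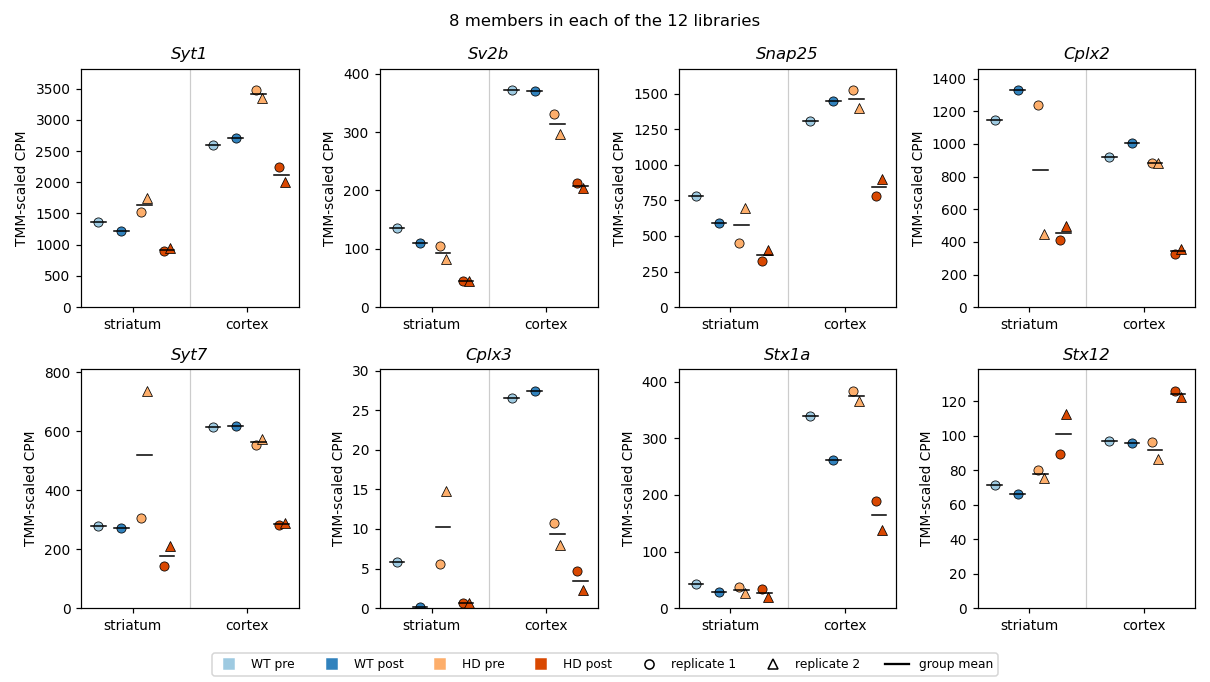
TMM-scaled CPM (vertical axes, from 0) of 8 members in striatum and cortex, with a point for each of the 12 libraries and a bar at the group mean. Syt1, Sv2b and Snap25 after symptom onset (dark orange) lie under all other libraries of their region, Stx12 lies above them, and Cplx2 and Syt7 have 1 pre-symptomatic HD striatum library far from its replicate.

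Cplx2, a complexin of excitatory and striatal neurons, was the member of high level with the largest difference from WT mice. Striatal Cplx2 was at 413 and 499 CPM in HD mice after onset, 1236 and 446 before it, and 1329 and 1149 in WT at 13 and 8 weeks, the value of 446 being that of the library that stood apart. Cortical Cplx2 was at 328 and 355 CPM after onset, 885 and 885 before it, and 1006 and 918 in WT. After onset every HD library was under the WT library of its region, at 34.3% of the WT level in striatum and 33.9% in cortex. The log2 fold change against WT mice was −1.55 ± 0.30 (adjusted p = 0.0120). It kept its call in 17 of 19 alternative fits and lost it without either WT library of that age. Between the HD stages Cplx2 was at −1.11 ± 0.28 (adjusted p = 0.0558), and at −1.39 without the library that stood apart. DESeq2 called it between the stages (−1.13, adjusted p = 0.000819). Before onset it was at −0.24 ± 0.30 against WT mice (adjusted p = 0.786).

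Cplx1, the complexin more common in inhibitory neurons, was in cortex 461 and 501 CPM after onset, 805 and 734 before it, and 868 and 922 in WT. In striatum it was 261 and 606 CPM after onset, 355 and 958 before it, and 390.0 and 338 in WT, so that the stages overlapped there. Its log2 fold change between the stages was −0.63 ± 0.35 (adjusted p = 0.331). Cplx2 made up 41.5% and 41.6% of the counts of Cplx1 and Cplx2 together in post-symptomatic HD cortex, 52.3% and 54.7% before onset, and 53.7% and 49.9% in WT. In striatum that share was 61.3% and 45.2% after onset, 77.7% and 31.8% before it, and 77.3% in each WT library. The share was thus lowest in the library that stood apart.

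Cplx3, a complexin of retina and of deep cortical neurons, fell between the stages at few counts. In striatum it was 0.653 and 0.642 CPM after onset (7 and 6 counts), 5.62 and 14.7 before it, 0.0954 in WT at 13 weeks (1 count) and 5.83 in WT at 8 weeks. In cortex it was 4.64 and 2.30 CPM after onset, 10.8 and 7.94 before it, and 27.4 and 26.5 in WT. The HD stages did not overlap in either region. The WT libraries of striatum also lay far apart between the ages, whereas those of cortex lay together above all HD libraries. The log2 fold change between the stages was −2.49 ± 0.58 (adjusted p = 0.0362), and −1.99 without the library that stood apart. The call was lost in 6 of 14 alternative fits. Against WT mice after onset it was at −2.30 ± 1.06 (adjusted p = 0.245).

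Sv2b, the Sv2 protein of many excitatory neurons, fell between the stages and was lower than in WT mice after onset. Sv2b in striatum was at 45.5 and 44.7 CPM after onset, 105 and 81.9 before it, and 109.7 and 136 in WT at 13 and 8 weeks. Sv2b in cortex was at 212 and 205 CPM after onset, 331 and 297 before it, and 369.9 and 372 in WT. All 8 HD libraries were under the WT libraries of their region, and those after onset were the lowest. The log2 fold change was −0.80 ± 0.13 between the stages (adjusted p = 0.00827) and −1.04 ± 0.17 against WT mice after onset (adjusted p = 0.00474). The stage call held in all 14 alternative fits, and the genotype call in 18 of 19, all but the fit without the WT striatum library of that age. Before onset it was at −0.40 ± 0.17 against WT mice (adjusted p = 0.309).

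The other Sv2 genes did not pass the test. Sv2a, the form found in most neurons, was in striatum 508 and 756 CPM after onset, 500.1 and 743 before it, and 408 and 396 in WT, and in cortex it lay between 665 and 739 CPM in all 6 libraries. Its log2 fold change between the stages was 0.01 ± 0.16 (adjusted p = 0.972). Sv2c, found in basal ganglia, was 7.46 and 3.64 CPM in HD striatum after onset, 7.03 and 12.3 before it, 1.81 in WT at 13 weeks and 21.9 in WT at 8 weeks. Its WT libraries lay further apart than its HD groups, and it was at −1.35 ± 0.56 between the stages (adjusted p = 0.191).

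No synapsin passed the test between the stages in the main edgeR fit or by DESeq2. Syn1 was 252 and 259 CPM in cortex after onset, 391 and 381 before it, and 356 and 384 in WT. In striatum it was 129 and 151 CPM after onset, 144 and 171 before it, and 122 and 142 in WT. The stages overlapped in striatum and did not in cortex. Syn1 was at −0.37 ± 0.13 between the stages (adjusted p = 0.128), Syn2 at −0.34 ± 0.14 (adjusted p = 0.196) and Syn3 at −0.04 ± 0.20 (adjusted p = 0.943). Syn2 lay between 81.9 and 154 CPM in striatum and between 191 and 264 in cortex, and Syn3 between 12.4 and 21.6 CPM in all 12 libraries.

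Stx12, a syntaxin of endosomes (also called syntaxin 13), was the member that rose. Stx12 in striatum was at 89.6 and 113 CPM after onset, 79.8 and 75.3 before it, and 66.2 and 71.6 in WT. Stx12 in cortex was at 126 and 123 CPM after onset, 96.4 and 86.4 before it, and 95.6 and 96.9 in WT. The post-symptomatic HD libraries were the highest of each region. The log2 fold change was 0.43 ± 0.11 between the stages (adjusted p = 0.0498) and 0.49 ± 0.14 against WT mice after onset (adjusted p = 0.0510). The stage call was lost in 9 of 14 alternative fits. Stx18, a syntaxin of the endoplasmic reticulum, was lower in the HD libraries after onset than in all others of its region, at 411 and 489 CPM in striatum and 342 and 369.6 in cortex. Gm42858 and Nsg1 are annotated on the strand opposite to Stx18. The counting rule is not given, and whether their tags were counted as Stx18 was not tested. In the main edgeR fits Stx18 missed the threshold between the stages (−0.38 ± 0.13, adjusted p = 0.102) and against WT mice (−0.52 ± 0.15, adjusted p = 0.0546). Without the library that stood apart its change between the stages was −0.45. DESeq2 called Stx18 lower than in WT mice after onset (−0.53, adjusted p = 0.0152).

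Apart from Stx12, no syntaxin or Vamp gene of other organelles passed the test between the stages in the main edgeR fit or by DESeq2. With library totals edgeR called Stx7 (0.49, adjusted p = 0.0298). Stx7, a syntaxin of late endosomes, was 79.3 and 75.0 CPM in HD striatum after onset, 62.4 and 70.0 before it, and 64.7 and 71.3 in WT. Its cortical values were 105 and 88.7 CPM after onset, 82.7 and 71.4 before it, and 104 and 109 in WT. The HD stages of Stx7 did not overlap, and in cortex the WT libraries lay at or above the post-symptomatic ones. It was at 0.29 ± 0.11 between the stages (adjusted p = 0.171). Stx8, its partner in late endosomes, lay the other way, at −0.48 ± 0.19 (adjusted p = 0.161), with no overlap between the stages either. Stx3 stayed between 18.9 and 28.2 CPM in all 12 libraries, and Stx5a, the syntaxin of the early Golgi, between 16.2 and 26.5. Vamp4, a SNARE of the trans-Golgi network, was at 0.00 ± 0.13 between the stages (adjusted p = 0.994), and Vamp3, the Vamp2 relative of recycling endosomes, at −0.11 ± 0.22 (adjusted p = 0.828).

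No relative of Snap25 passed the test between the stages in the main edgeR fit or by DESeq2. With library totals edgeR called Snap29 (0.72, adjusted p = 0.0401). Snap47 was 301 and 360 CPM in HD striatum after onset, 303 and 346 before it, and 222 and 240 in WT, and its log2 fold change between the stages was 0.01 ± 0.11 (adjusted p = 0.967). Snap29, a partner of Stx17 in fusing autophagosomes with lysosomes, was at 0.51 ± 0.19 (adjusted p = 0.153) and Snap23, the Snap25 relative of most non-neuronal cells, at 0.07 ± 0.35 (adjusted p = 0.929). Both HD libraries after onset lay above the WT library of their region for Snap23, Snap29 and Stx17. Against WT mice after onset Stx17 was at 0.68 ± 0.25 (adjusted p = 0.121) and Snap23 at 0.96 ± 0.42 (adjusted p = 0.203).

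Among the remaining synaptotagmins, Syt12, which lacks the residues that bind calcium, was the nearest to the threshold. It was 4.29 and 3.64 CPM in HD striatum after onset, 12.1 and 5.92 before it, and 7.06 and 11.4 in WT, and 4.21 and 7.51, 11 and 10.1, and 11.7 and 10.9 CPM in cortex. The post-symptomatic libraries were the lowest of each region. Its log2 fold change between the stages was −0.99 ± 0.30 (adjusted p = 0.0784), and −1.14 without the library that stood apart. DESeq2 called Syt12 between the stages (adjusted p = 0.0237). Syt13 was at −0.78 ± 0.30 (adjusted p = 0.176), whereas Syt3, Syt4 and Syt5 were at −0.04 ± 0.15, 0.07 ± 0.17 and −0.10 ± 0.40. DESeq2 called Syt13 between the stages (adjusted p = 0.0481). Over the 8 HD libraries none of the 8 Stxbp genes passed between the stages by edgeR or DESeq2. Stxbp5 and Stxbp5l, the tomosyns that compete for SNARE assembly, were at 0.02 ± 0.16 and −0.28 ± 0.21. Without the library that stood apart Stxbp5l was at −0.50.

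Sytl1, a synaptotagmin-like Rab27 effector, was called lower in HD than in WT mice after onset on very few counts. It had 0 and 0 counts in post-symptomatic HD striatum, 1 and 1 in post-symptomatic HD cortex, 0 in WT striatum and 29 in WT cortex. The whole difference was in the WT cortex library, without which the fitted log2 fold change was 0.05 in place of −4.11 (adjusted p = 0.0439), a value that depends on the prior count. Before onset HD cortex had 10 and 9 counts and WT cortex 19.

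Several members lay far apart between the striatal replicates, as sums of cell type markers did. Vamp1, the vesicle SNARE of fast-spiking and motor neurons, was 53.3 and 201 CPM in HD striatum after onset, 34.0 and 342 before it, and 39.5 and 29.0 in WT. The higher value of each HD pair was that of replicate 2. Markers of parvalbumin interneurons (4 genes summed) were at 139 and 373 CPM in the same libraries after onset, at 122 and 916 before it, and at 91.7 and 72.6 in WT. Syt2 and Cplx1 were also higher in replicate 2 of both stages. Syt9, a striatal calcium sensor, was 49.1 CPM in the library that stood apart and 3.85 to 13.0 in the other striatal libraries. The part of these markers in the members' values was not tested. In cortex Vamp1 was 62.0 and 55.5 CPM after onset, 199.9 and 181 before it, and 252 and 255 in WT. The cortical groups of Vamp1 did not overlap, and the parvalbumin markers were at 224 and 197 CPM after onset, 490 and 471 before it, and 443 and 458 in WT. Their part in the cortical values of Vamp1 was not tested. Over both regions its log2 fold change was −1.12 ± 0.77 (adjusted p = 0.451).

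**Figure D4:**
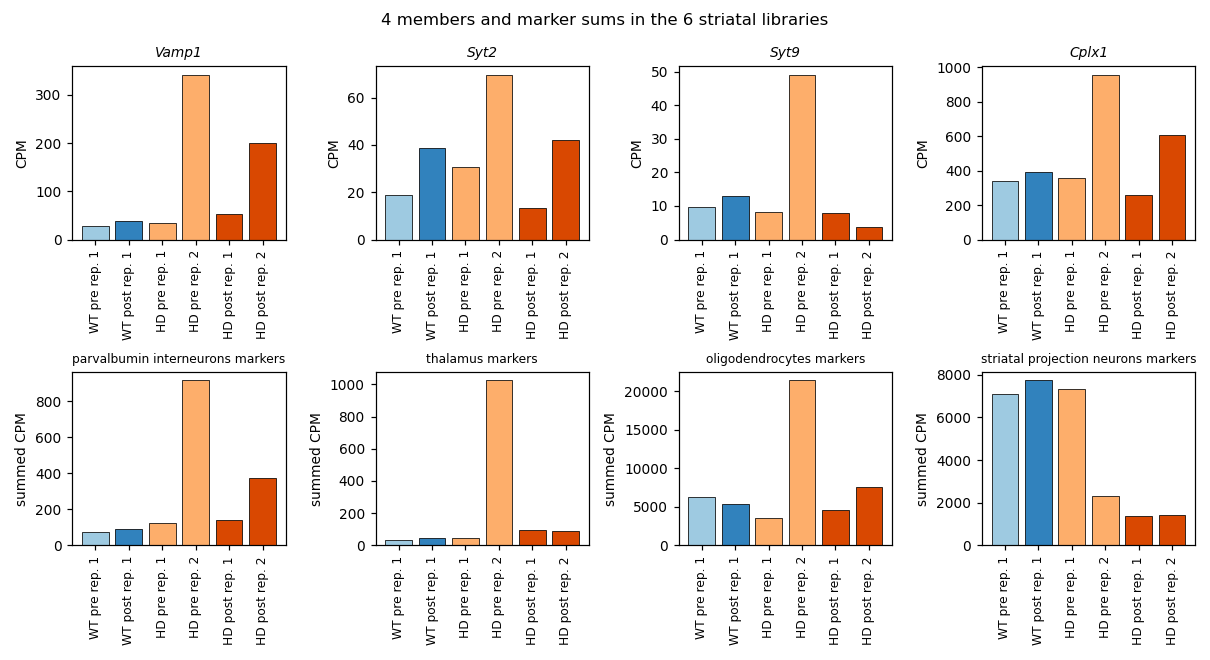
Level (CPM, upper row) of 4 members and summed CPM of marker lists (lower row) in the 6 striatal libraries, each bar 1 library and each axis from 0. The pre-symptomatic HD library of replicate 2 has the highest bars for Vamp1 (342 CPM), Syt2, Syt9, Cplx1 and the interneuron, thalamus and oligodendrocyte markers, while its striatal projection neuron markers are at 2309 CPM.

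Striatum and cortex were compared over all 12 libraries with genotype and stage as terms. Of 59 members, 19 were lower and 6 higher in striatum, that is 32.2% and 10.2%, beside 12.1% and 8.51% of all genes. Of the 17 core members, 8 were lower and 1 higher in striatum. The median log2 difference was −0.18 over the members and 0.01 over all genes. Under the alternatives the count of members that differed was between 22 and 29 (37.3% to 49.2%, beside 13.4% to 25.7% of all genes). With library totals it was 25 (42.4%, beside 21.4% of all genes), all of them shared.

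Stx1a differed most among the core. It was 19.5 to 43.1 CPM in the 6 striatal libraries, with a median of 31.6, and 139 to 384 in the 6 cortical libraries, with a median of 301, with no overlap. Its log2 difference was −3.09 ± 0.20 (adjusted p = 2.54e-06), whereas Vamp2 at −0.59 ± 0.09. Sv2b was 44.7 to 136 CPM in striatum (median 93.6) and 205 to 372 in cortex (median 314), with a log2 difference of −1.85 ± 0.12 (adjusted p = 1.07e-06). Syn1 was at −1.22 ± 0.11, Snap25 at −1.19 ± 0.13, Syt1 at −1.10 ± 0.09 and Syn2 at −0.95 ± 0.12. Cplx2 and Cplx1 did not pass. Among the members outside the core, Syt13 was at −2.07 ± 0.27 (adjusted p = 0.000492), Sytl2 at −1.44 ± 0.34 and Snap91 at −1.01 ± 0.10.

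Members higher in striatum were fewer. Sytl5 was 3.42 to 10.1 CPM in striatum (median 6.65) and 0.255 to 1.74 in cortex (median 0.699), with a log2 difference of 3.09 ± 0.32 (adjusted p = 3.14e-05). Sv2c was at 2.17 ± 0.45 (adjusted p = 0.00533) and Syt6 at 2.17 ± 0.31 (adjusted p = 0.000728), the latter with 11.7 to 41.5 CPM in striatum and 3.27 to 9.99 in cortex. The lowest striatal value of Syt6 was that of the library that stood apart. Stxbp2 was at 0.83 ± 0.20, Stx2 at 0.67 ± 0.21 and Stx18 at 0.50 ± 0.10. The limit given above for Stx18, with genes annotated on its opposite strand, holds here too. The call of Stx2 was lost in 8 of 19 alternative fits. Markers of striatal projection neurons and of cortical excitatory neurons differed between the regions as labelled, with 8 of 8 tested higher and 8 of 9 lower in striatum.

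**Figure D5:**
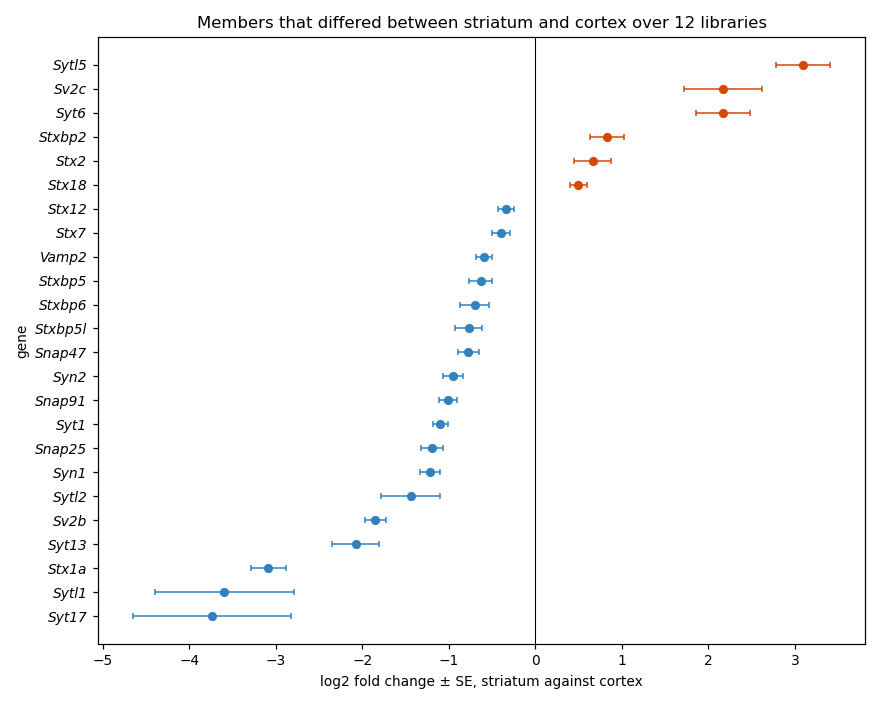
Log2 fold change of striatum against cortex with its standard error (horizontal axis) for members with an adjusted p under 0.05, higher in striatum in orange and lower in blue. Lower members are the more frequent, and Stx1a at −3.09 is the lowest of the neuronal core.

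Other genes of the vesicle cycle were taken from 3 lists. Of 33 active zone and priming genes tested, 7 fell between the HD stages and none rose by edgeR, beside 4.53% and 1.93% of all genes, with a median log2 fold change of −0.36. Unc13a, the priming factor Munc13-1, was at −1.10 ± 0.14 (adjusted p = 0.00357), Rims1, an active zone scaffold, at −1.10 ± 0.22 (adjusted p = 0.0187), and Rph3a, a Rab3 effector, at −1.23 ± 0.26 (adjusted p = 0.0324). After onset 3 of the 33 were lower than in WT mice (Unc13a at −1.17 ± 0.21, Bsn and Napa) and 1 was higher (Pclo at 0.80 ± 0.18), beside 4.26% and 3.10% of all genes. Before onset 3 were higher, beside 1.95% of all genes, among them Rims1 at 1.98 ± 0.31 and Pclo at 1.25 ± 0.18. Of 25 genes of the vesicle membrane and its transporters, none passed between the stages. After onset 2 were lower than in WT mice, the acetylcholine and GABA transporters Slc18a3 and Slc32a1, beside 4.26% of all genes. Syp, encoding synaptophysin, was higher, at 0.74 ± 0.17 (adjusted p = 0.0235), beside 3.10% of all genes. Of 27 endocytosis genes, 1 fell between the stages (Dnm1 at −0.51 ± 0.13) and 1 rose (Hspa8 at 0.55 ± 0.13), beside 4.53% and 1.93% of all genes. After onset 2 of these were lower than in WT mice (Cltc and Ap2m1) and 1 higher (Synj1), beside 4.26% and 3.10%. Before onset 4 were higher (Dnm3, Itsn2, Itsn1 and Synj1) and none lower, beside 1.95% and 0.15%. Between the regions 21 of the 33 active zone genes were lower in striatum and 6 higher, beside 12.1% and 8.51% of all genes, with Doc2b and Unc13c the highest, at 3.15 ± 0.32 and 3.13 ± 0.32.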

How the data were processed

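RNA was extracted with Trizol and libraries of the 3′ ends of transcripts were prepared from striatum and cortex (Lexogen QuantSeq). The authors deposited raw read counts per gene symbol, 1 table per library, without normalization. The submitters' processing notes name Bowtie2, bedtools and the build mm10, and the annotation and counting rule are not given in the sources used here. Of 23282 rows, 44 repeated a symbol listed before. Counts of the replicate pairs differed beyond sampling noise, with chi-square values of 6.98 to 73.0 per degree of freedom.

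CPM and all tests are from edgeR 4.0.16 under R 4.3.3, with TMM scaling, genes kept by filterByExpr (min.count 10), the quasi-likelihood test in its robust form and a Benjamini-Hochberg threshold of 0.05. HD stages were compared over the 8 HD libraries, across regions with a region term and within each region from 1 fit of the 4 groups. HD with WT mice and the regions were compared over all 12 libraries. The fits take striatum and cortex of 1 number as independent. SE is the log2 fold change divided by the root of F. Members were the rows matching the name rule. Named were the neuronal core, every member called by stage or genotype, up to 8 called members in each direction between regions with a mean of at least 5 CPM, the 3 smallest p-values where fewer than 3 were called, members without counts, and up to 3 called genes a direction of the other lists. Other members were named after their values were seen. The members and lists were chosen with earlier results of these data known. Alternatives were DESeq2 1.42.0, voom of limma 3.58.1 with a random block for the mouse, upper-quartile normalization, no filter, a replicate block, sex as a term, leaving out each library, and, chosen after the data were seen, library totals without TMM. The test of the HD stages across regions and that of HD against WT mice after onset were run on simulated counts by edgeR, DESeq2 and voom. There unchanged genes made up a larger share of the calls than the threshold allows with DESeq2 and voom, and in some runs with edgeR. The fit within each region and the other alternatives were not simulated. Intervals are not given for counts, since tags without molecular identifiers are not independent molecules. Coordinates are from GENCODE M21 and RefSeq (GRCm38). The RefSeq entry of Cplx2 starts far from its GENCODE start and that of Sytl1 was not shown. Values of some members are not reported here, though the counts and sums include them.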

Additional observations from a re-analysis of the deposited data

Results flagged for a closer look

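Several members lay on opposite sides of the WT library in striatum and in cortex, in both HD libraries of an age. The difference between the regions was not tested, since each WT group has 1 library. How many of all genes show this pattern was not counted at either age. Whether the pattern exceeds the spread between libraries was not tested, so the lists do not set the members apart from other genes. The values are log2 ratios of HD to WT in striatum less those in cortex. After symptom onset they were 3.79 for Vamp1, 5.75 for Cplx3, 0.67 for Syn1, 0.67 for Sv2a, 2.69 for Sv2c, 0.70 for Syt13 and 0.61 for Snap47, all above WT in striatum and below it in cortex. They were −0.35 for Stx16, −0.35 for Stx5a, −2.97 for Syt10 and −0.98 for Syt14, which were below WT in striatum and above it in cortex. For Cplx3 and Sv2c the WT striatum library of that age was far under the one of the other age, at 1 and 19 counts.

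Before onset the values were 3.12 for Vamp1, 1.22 for Cplx1, 0.78 for Sv2a, 1.03 for Syt7, 0.20 for Stx12, 1.40 for Sytl1, 0.75 for Snap47, 0.84 for Stx17 and 0.77 for Stxbp2, which were above WT in striatum and below it in cortex. They were −0.59 for Stx1a, −0.60 for Snap25, −1.36 for Snap29, −0.79 for Stx4a and −2.17 for Stxbp3, which were below WT in striatum and above it in cortex. In striatum before onset Sytl1 had 1 and 2 counts in HD mice and 1 in WT. The striatal side of each before onset includes the library with high thalamus and oligodendrocyte markers.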

How the results depend on the processing

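Of the 6 members called between the HD stages, Syt1 and Sv2b were called in all 14 alternative fits. The count was 11 with DESeq2, 3 with voom, and 2 to 11 leaving out 1 library, 2 without the post-symptomatic cortex library of replicate 2 or either pre-symptomatic cortex library and 11 without the pre-symptomatic striatum library of replicate 2. Within striatum it was 5 with DESeq2, 3 without the filter and 0 to 10 leaving out 1 library, and within cortex 4 with DESeq2, 1 with voom and 0 to 11, the upper values without either pre-symptomatic striatum library. For the difference between regions, members were called only without the pre-symptomatic striatum library of replicate 1, where more of all genes were called too. Against WT mice after onset the count was 9 with DESeq2 (15.3%, beside 12.3% of all genes). Without a WT library of that age few calls or none remained, of members as of all genes. Before onset the count was 4 with DESeq2 (6.78%, beside 4.58% of all genes) and 3 by library totals (5.08%, beside 1.53%). The HD change less the WT change had 1 call with DESeq2 (1.69%, beside 1.57% of all genes), and the WT change had no call in any fit. Striatum against cortex had 22 to 29 calls leaving out 1 library (37.3% to 49.2%, beside 13.4% to 25.4% of all genes). The cause of these shifts was not tested.

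With a replicate block, 6 members (10.3%, beside 7.16% of all genes) were called between the stages. Of these, 5 were shared with the fit without the block, since Stx12 was lost and Syt2 gained (−1.24, adjusted p = 0.0488). The block gave 1 call in cortex (Stx1a, adjusted p = 0.0382), or 1.72% beside 0.757%. It gave 4 against WT mice after onset (6.78%, beside 6.02%), where Sytl1 was lost and Syt7 gained (−1.16, adjusted p = 0.0491). Same-numbered libraries correlated at 0.025 to 0.27 between HD groups, so the numbers were not taken to pair them. Sytl1 against WT mice after onset ranged from −4.65 to 0.049 and reversed without the WT cortex library. Syt14 between the WT ages ranged from −0.13 to 0.87 and reversed without the WT striatum library of 13 weeks.

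The log2 ratios of HD sums after to before onset in cortex, by library totals and then also without Rn45s, were −0.77 and −0.80 for Cplx, −0.25 and −0.28 for Snap, −0.065 and −0.094 for Stx, −0.054 and −0.084 for Stxbp, 0.064 and 0.035 for Sv2, −0.21 and −0.23 for Syn, −0.19 and −0.22 for Syt, −0.047 and −0.077 for Vamp, and −0.20 and −0.23 for all members. In striatum they were 0.22 and 0.23 for Stxbp and −0.078 and −0.066 for Syn. Only 2 HD libraries and 1 WT library per group limit what could be detected.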
